A study of Mus musculus with 4 samples.

Results

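Myc, its partner Max and 36 genes that build ribosomes were followed in brain microglia of mice 24 hours after an IV dose of a TREM2-activating antibody or its control. The 38 genes were chosen by symbol, with earlier results of these data known, from the 19737 genes of the deposited count matrix. All 38 had at least 1 UMI (unique molecular identifier, a count of captured RNA molecules), and all 38 passed the filter on low counts that left 14058 genes for testing. The matrix held 74758 cells from 20 mice, 4 in each of 5 groups. Of the WT;TfRmu/hu mice (WT below), 1 group received ATV:ISO and another ATV:4D9. The AppSAA;TfRmu/hu mice (AppSAA below) formed 3 groups, with ATV:ISO, 4D9 and ATV:4D9. 4D9 is an antibody that activates TREM2, a lipid-sensing receptor of microglia. The ATV form also binds the human transferrin receptor, which carries it across the blood-brain barrier. All mice, controls included, carried a mouse transferrin receptor with the human apical domain knocked in (recorded as homozygous). The AppSAA mice were homozygous for a knock-in of App with familial Alzheimer's disease mutations.

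ATV:ISO stands in the files as ATV-DNP02, and that the names mean the same antibody is a reading not spelled out in any deposited text. No WT mice received 4D9, and the 4D9 arm was set against ATV:ISO, which differs from it in the transport vehicle as well. One WT mouse given ATV:ISO was recorded as female. The labels gave no age. The methods list AppSAA mice as male and 8 months old, and WT mice as 2 to 8 months old and of mixed sex, without an age for each experiment. The paper refers to a supplementary summary of genotype, age and sex, which was not read here. The labels and methods disagree on whether hippocampus was taken along with cortex and on the sort (CD11b, or CD45 and CD11b). Every one of the 4 pools mixed cells of 5 mice, 1 from each group, and per-mouse values are given below in the order of pools 1 to 4. The labels do not say that mice of a group came from separate litters, so p-values measure the spread between these mice.

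Between 2193 and 6126 cells and between 17150296 and 102446549 UMIs were summed per mouse. Of 74212 distinct cell barcodes, 543 occurred in more than 1 pool. The 7 microglia markers were all detected and together held 12477 to 22998 CPM (UMIs of a gene per 1000000 UMIs of the same mouse). Markers of 8 other cell types were all detected and summed to at most 44.4 CPM per list, the highest being oligodendrocyte markers. The endothelial markers moved with the groups, from 1.19 to 6.79 CPM in WT mice, 27.1 to 43.6 CPM in AppSAA mice given ATV:ISO or 4D9, and 9.45 to 21.2 CPM in AppSAA mice given ATV:4D9. The summed microglia markers went from a mean of 22645 to 15765 CPM with ATV:4D9 in WT mice and from 16355 to 13421 CPM in AppSAA mice. The part of these shifts in the results below was not tested.

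Ribosomes are assembled in the nucleolus, where RNA polymerase I transcribes the precursor of ribosomal RNA. Small nucleolar particles then modify that precursor, the small subunit processome cuts and folds its first section, and further factors release the large (60S) and small (40S) subunits into the cytoplasm. Myc, a transcription factor that binds DNA as a dimer with Max, is known as a driver of this program in growing and dividing cells, and its preferred site is the E-box CACGTG.

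Windows of 300 bases at the start site, 250 bases before it and 50 after, were available in RefSeq (GRCm38.p6) for 32 of the 38 genes. Bop1, Fbl, Myc, Npm1, Rrp12 and Rrs1 had none. CACGTG, which reads the same on both strands, was found in 9 of the 32 windows (28.1%), against 8.09% of the 27025 genes with a window. It lay wholly before the start site in 2 of the 32 members, Imp4 and Nop2, against 6.86% of those genes. In Max it spanned the start, and in Wdr43, Pno1, Ltv1, Tsr1, Pes1 and Mybbp1a it lay after it. The 27025 genes were not limited to genes expressed in these cells, while all members passed the filter on low counts. These shares thus come from unlike sets. Stretches of 30 bases around the E-box are given below for 5 members, Imp4 and Nop2 by the rule for sequences and Max, Pno1 and Tsr1 added after their values were seen, because they span the range of responses described further on. Each reads 5′ to 3′ on the strand of the gene, with the E-box in capitals.
Max (chr12:76962234-76962263, minus strand): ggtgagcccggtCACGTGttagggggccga
Imp4 (chr1:34439696-34439725, plus strand): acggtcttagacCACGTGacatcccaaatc
Nop2 (chr6:125131811-125131840, plus strand): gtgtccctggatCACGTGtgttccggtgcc
Pno1 (chr11:17211540-17211569, minus strand): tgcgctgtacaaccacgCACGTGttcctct
Tsr1 (chr11:74898092-74898121, plus strand): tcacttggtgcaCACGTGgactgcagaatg

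ATV:4D9 raised nearly all of these genes relative to the other genes of the same cells. UMIs were summed per mouse, and log2 fold changes are those of edgeR's quasi-likelihood test with TMM scaling, called at a Benjamini-Hochberg adjusted p of 0.05 over all 14058 genes. The members were chosen with earlier results of these data known, so the counts of members that follow are no independent check. In WT mice 35 of 38 members rose and 0 fell, while 30.8% of all genes were called higher and 32.5% lower. The median member change was 0.87 on the log2 scale, against -0.05 for all genes. CPM did not overlap between the 4 treated and 4 control mice for 33 members, where 57% of all genes did not overlap in either direction. In AppSAA mice 37 of 38 rose and 0 fell, beside 27.9% of all genes called higher and 27.1% lower, with a median of 0.70 against -0.03. Both comparisons are relative to other genes, since total UMIs also rose. TMM scaling places them 0.11 and 0.07 above the plain CPM ratio on the log2 scale, and among the members only Ddx10 in WT mice has another sign on CPM.

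With 4D9, which lacks the transport vehicle, none of the members passed the test. Against ATV:ISO in AppSAA mice, 0 of 38 members were called, 0 had an unadjusted p under 0.05, and DESeq2 and limma-voom also called 0. Over all genes the share called was 0% in either direction. The 38 log2 fold changes ran from -0.16 (Rrp12) to 0.08, with a median of -0.03. Set against 4D9, ATV:4D9 raised 37 of 38 members, with a median of 0.73, beside 27.6% of all genes called higher and 26.7% lower. This comparison shares its ATV:4D9 mice with that against ATV:ISO. Myc was among the 37 (0.33 ± 0.14, edgeR adjusted p 0.0485), but that call was lost without the 4D9 mouse of pool 1, 2 or 3 or any 1 of the 4 ATV:4D9 mice (0.0517 to 0.160). It was also lost with RLE size factors (0.32, edgeR adjusted p 0.0502), in cells with 5000 to 15000 UMIs (0.30, 0.0832), in cells thinned to 5000 UMIs (0.28, 0.115) and without cluster 4 (0.31, 0.0710). Nob1 was lost without the 4D9 mouse of pool 4 (0.0750) or the ATV:4D9 mouse of pool 1 (0.0935), and Nop10 without the latter (0.0715). In cells with 5000 to 15000 UMIs 30 members were called against 4D9, with Imp4, Polr1b, Nob1, Ddx10, Heatr1 and Rrp1b lost beside Myc (changes of 0.04 to 0.25, edgeR adjusted p 0.0575 to 0.680). In thinned cells 33 were called, with Polr1b, Nob1 and Heatr1 lost beside Myc (0.17 to 0.29, 0.0587 to 0.0823).

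**Figure D1:**
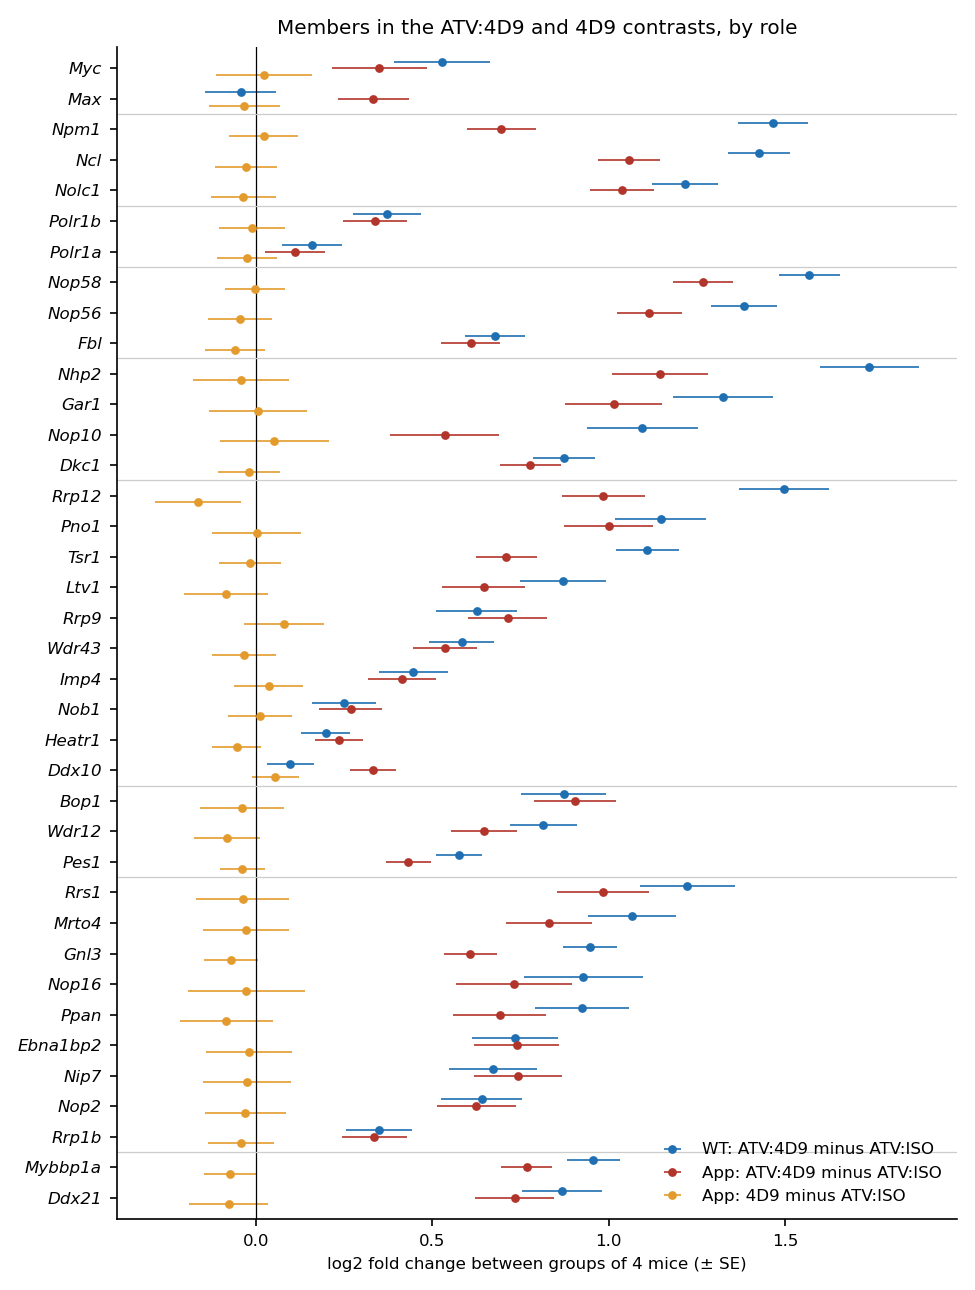
Log2 fold change (x axis) of each of the 38 members (y axis, grouped by role) in 3 comparisons between groups of 4 mice (App stands for AppSAA), with bars of 1 standard error. With ATV:4D9 members sit right of 0 except Max in WT mice (-0.04), with Nhp2 the farthest at 1.74, and with 4D9 they sit between -0.16 and 0.08.

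Myc itself rose less than most of the ribosome biogenesis genes. In WT mice given ATV:ISO it stood at 38.7, 24.6, 26.3 and 39.2 CPM. With ATV:4D9 it stood at 40.1, 46.5, 43.8 and 41.5 CPM. The groups did not overlap, but 2 of the control mice lay within 2 CPM of the lowest treated mouse. The change was 0.53 ± 0.14 (log2, SE), a 1.44-fold rise with an edgeR adjusted p of 0.00222. In AppSAA mice Myc was 27.5, 20.4, 25.5 and 29.4 CPM with ATV:ISO and 30.4, 30.2, 31.9 and 31.9 CPM with ATV:4D9. Again the groups lay side by side without overlap, with a change of 0.35 ± 0.14 and an edgeR adjusted p of 0.0340. That call was lost without the ATV:4D9 mouse of pool 1 (edgeR adjusted p 0.0829) or 3 (0.0565), or without the ATV:ISO mouse of pool 2 (0.115) or 3 (0.0814). With 4D9 Myc was 23.9, 24.9, 22.8 and 32.1 CPM, which overlaps the values with ATV:ISO.

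Max, the dimer partner, followed another course. It stood at 49.3, 54.4, 51.6 and 46.2 CPM with ATV:ISO and 49.0, 46.0, 42.7 and 42.7 CPM with ATV:4D9 in WT mice. The groups overlapped, and the change of -0.04 ± 0.10 was not called (edgeR adjusted p 0.737). In AppSAA mice Max was 45.4, 46.3, 44.0 and 41.8 CPM with ATV:ISO, and rose to 57.6, 53.6, 52.9 and 48.3 CPM with ATV:4D9, all above the controls (0.33 ± 0.10, edgeR adjusted p 0.00789). The difference between the genotypes in this effect, 0.38 ± 0.14, did not pass the threshold (edgeR adjusted p 0.111), but was called with the pool as a block (0.37, edgeR adjusted p 0.00150).

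The nucleolar chaperones were among the strongest risers in WT mice. Npm1, an abundant protein that holds ribosomal proteins and histones in the nucleolus, was 365, 363, 342 and 348 CPM in WT mice given ATV:ISO. It reached 919, 841, 925 and 926 CPM with ATV:4D9, far outside the control range, a change of 1.46 ± 0.10 (2.76-fold, edgeR adjusted p 1.19e-10). In AppSAA mice it was already higher with ATV:ISO, at 535, 623, 578 and 570 CPM, and rose to 994, 813, 867 and 868 CPM (0.70 ± 0.10, 1.62-fold), near the median of the members there. Ncl, a pre-ribosomal RNA binding protein, rose by 1.42 and 1.06 in WT and AppSAA mice, and Nolc1, a chaperone of small nucleolar particles, by 1.22 and 1.04. The last 500 bases of Npm1 and Ncl share 60-base stretches with processed pseudogenes, as do those of Fbl, Mrto4, Nop56 and Wdr12, while Dkc1, Nip7 and Polr1b share such stretches with other transcripts. Counts of these 9 members are less certain, since the 3′ reads can match more than 1 gene.

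Of the ribosome biogenesis classes RNA polymerase I moved least. Polr1b, one of its catalytic subunits, was 5.42, 6.30, 6.24 and 6.22 CPM with ATV:ISO and 6.8, 6.96, 7.63 and 7.49 CPM with ATV:4D9 in WT mice. Each treated mouse lay above every control mouse by a narrow margin (0.37 ± 0.10, edgeR adjusted p 0.00207). In AppSAA mice the groups overlapped, at 5.08, 5.36, 6.45 and 5.26 CPM against 6.54, 5.92, 7.41 and 6.79 CPM, with a rise in each pool (0.34 ± 0.09, edgeR adjusted p 0.00394). This call was lost in cells with 5000 to 15000 UMIs (0.16, edgeR adjusted p 0.338) and in cells thinned to 5000 UMIs (0.24, 0.111). Polr1a, the largest subunit, was not called in either genotype, with changes of 0.16 (edgeR adjusted p 0.112) and 0.11 (0.278). It was called in WT mice with the pool as a block (edgeR adjusted p 0.0355), without a filter on low counts (0.0394), without cluster 4 (0.26, 0.0158), without the ATV:ISO mouse of pool 1 (0.24, 0.0171) and by DESeq2 (adjusted p 0.0469).

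The member transcripts that encode proteins of both kinds of small nucleolar particle all rose. Box C/D particles methylate ribosomal RNA. Of their proteins, the scaffold Nop58 went from 36.5, 38.2, 33.7 and 37.1 CPM to 92.4, 103, 101 and 103 CPM in WT mice. There was a wide gap between the groups (1.57 ± 0.09, edgeR adjusted p 4.70e-12). In AppSAA mice it went from 34.4, 37.4, 36.8 and 37.3 CPM to 92.9, 75.3, 80.3 and 83.9 CPM (1.27 ± 0.08, edgeR adjusted p 1.73e-10). Nop56 rose by 1.38 and 1.11 in the WT and AppSAA mice, and the methyltransferase Fbl by 0.68 and 0.61.

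Box H/ACA particles turn uridine into pseudouridine, and Nhp2, one of their core proteins, had the largest log2 fold change of the 38 genes in WT mice. It was 45.5, 40.9, 41.1 and 37.7 CPM with ATV:ISO and 135, 115, 129 and 128 CPM with ATV:4D9, with no overlap and a 3.33-fold difference (1.74 ± 0.14, edgeR adjusted p 1.60e-09). Nhp2 in AppSAA mice was 57.2, 60.3, 52.2 and 50.5 CPM and rose to 144, 98.9, 107 and 112 CPM (1.14 ± 0.14, edgeR adjusted p 7.02e-07). The mouse of pool 1 stood apart from the other treated mice there. Gar1 rose by 1.32 and 1.01, Nop10 by 1.09 and 0.54, and the pseudouridine synthase Dkc1 by 0.87 and 0.78, in WT and AppSAA mice respectively.

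The small subunit class spanned changes from 0.10 to 1.497 in WT mice, with 9 of 10 members called in WT mice and 10 of 10 in AppSAA mice. Rrp12, an export and maturation factor, was the largest riser of the class in WT mice and also one of the scarcest members. It was 3.03, 3.32, 3.73 and 3.29 CPM with ATV:ISO and 7.49, 7.64, 9.52 and 10.2 CPM with ATV:4D9 in WT mice. Each treated mouse was above every control mouse (1.497 ± 0.130, edgeR adjusted p 3.36e-09). In AppSAA mice it went from 3.55, 4.13, 4.39 and 4.16 CPM to 8.0, 6.07, 8.37 and 8.07 CPM (0.98 ± 0.12). The late 40S factors Pno1 and Tsr1, whose E-box stretches are shown above, rose by 1.15 and 1.11 in WT and 1.00 and 0.71 in AppSAA mice. Ltv1, which leaves the 40S late, rose by 0.87 and 0.65. The processome proteins Rrp9, Wdr43 and Imp4 rose by 0.63, 0.58 and 0.45 in WT mice and by 0.71, 0.53 and 0.41 in AppSAA mice. The smallest changes were those of Nob1, the endonuclease of the last cut (0.25 and 0.27), the scaffold Heatr1 (0.20 and 0.24) and the helicase Ddx10 (0.10, not called, and 0.33). Without the cells of cluster 4 Ddx10 was called in WT mice (0.30, edgeR adjusted p 0.000702).

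Some of these small calls rested on single mice. In WT mice Nob1 was not called without the ATV:4D9 mouse of pool 2 (edgeR adjusted p 0.0586) or the ATV:ISO mouse of pool 4 (0.108), and Heatr1 without the ATV:ISO mouse of pool 1 (0.0656). In AppSAA mice Nob1 was not called without the ATV:4D9 mouse of pool 1 (0.0711) or the ATV:ISO mouse of pool 4 (0.0568). In thinned cells 3 calls missed the threshold with changes of much the same size, Heatr1 in WT mice (0.19, edgeR adjusted p 0.0515) and Heatr1 (0.19, 0.0527) and Nob1 (0.22, 0.0542) in AppSAA mice. In cells with 5000 to 15000 UMIs of AppSAA mice the change of Heatr1 was smaller (0.09, edgeR adjusted p 0.374).

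The large subunit members rose without exception in both genotypes. The PeBoW complex, which acts on the 60S precursor, gave 0.87, 0.81 and 0.57 for Bop1, Wdr12 and Pes1 in WT mice and 0.90, 0.65 and 0.43 in AppSAA mice. Bop1 stood at 12.9, 11.0, 14.1 and 11.7 CPM with ATV:ISO and 20.4, 18.4, 22.8 and 22.2 CPM with ATV:4D9 in WT mice. The groups did not overlap (edgeR adjusted p 2.75e-06). Among AppSAA mice it went from 11.3, 9.77, 12.4 and 10.7 CPM to 23.0, 15.9, 19.7 and 19.5 CPM (edgeR adjusted p 1.92e-06).

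Among the 9 other 60S assembly factors Rrs1, which helps to bring in the 5S particle, led. It was 20.7, 21.9, 17.6 and 16.7 CPM with ATV:ISO and 42.2, 43.5, 39.95 and 39.8 CPM with ATV:4D9 in WT mice. The lowest treated mouse lay well above the highest control mouse (1.22 ± 0.13, edgeR adjusted p 1.42e-07). In AppSAA mice it rose from 18.7, 20.8, 18.7 and 16.6 CPM to 41.7, 31.8, 34.3 and 31.96 CPM (0.98 ± 0.13). Mrto4, Gnl3 (nucleostemin), Nop16, Ppan, Ebna1bp2, Nip7 and the methyltransferase Nop2 rose by 0.64 to 1.07 in WT mice and by 0.61 to 0.83 in AppSAA mice. Rrp1b rose least of the class, by 0.35 and 0.34. In AppSAA mice its call was lost in cells with 5000 to 15000 UMIs (0.12, edgeR adjusted p 0.340), in thinned cells (0.21, 0.0643) and without cluster 4 (0.19, 0.101).

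Mybbp1a, a nucleolar Myb-binding protein, stood at 47.3, 44.1, 45.3 and 48.6 CPM with ATV:ISO and at 76.6, 83.0, 85.6 and 87.3 CPM with ATV:4D9 in WT mice. The spread within each group was small against the gap (0.96 ± 0.07, edgeR adjusted p 8.98e-10). In AppSAA mice it went from 44.3, 49.6, 49.5 and 49.3 CPM to 82.4, 70.5, 77.8 and 80.7 CPM (0.77 ± 0.07). The helicase Ddx21, which couples RNA polymerase I transcription to processing, rose by 0.87 and 0.73.

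**Figure D2:**
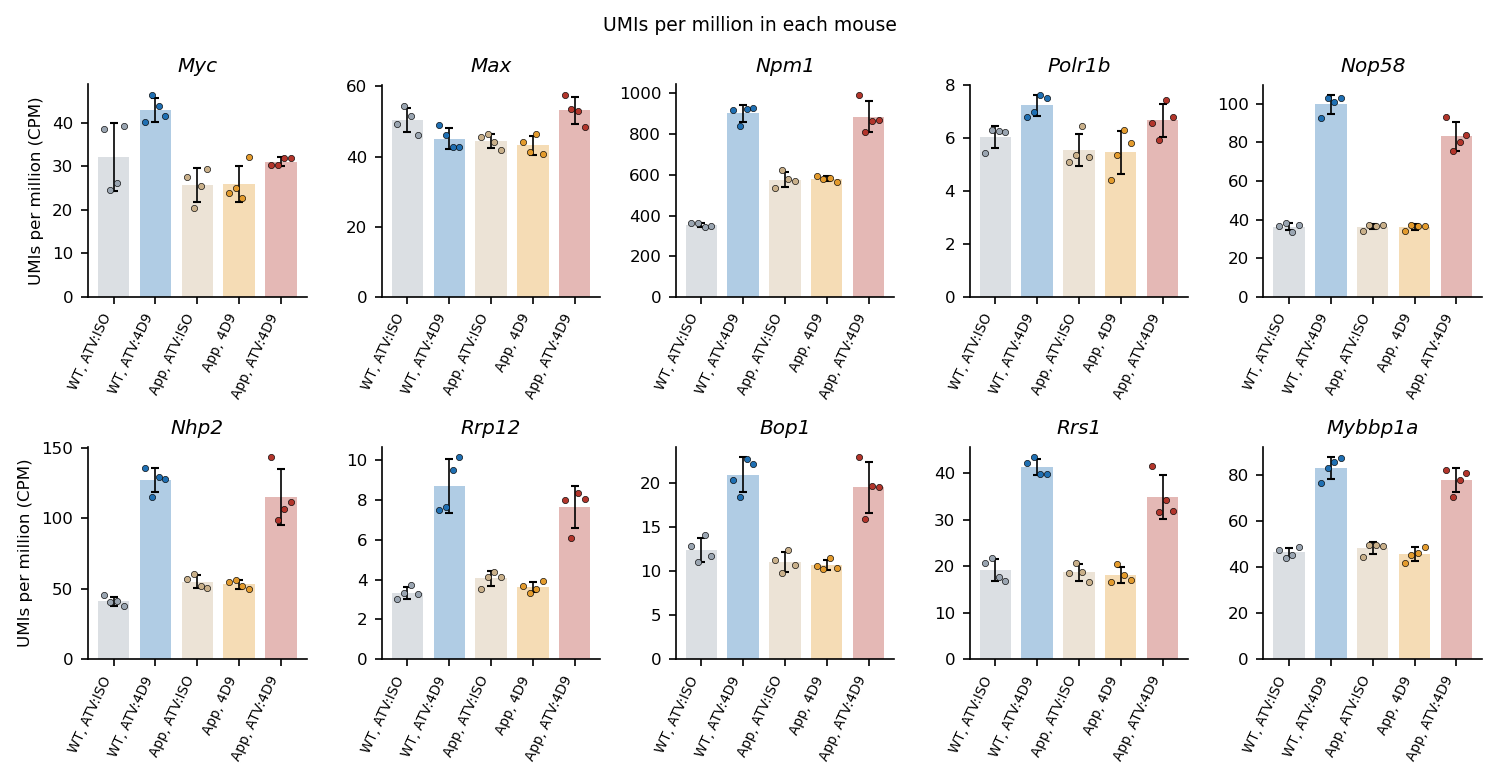
CPM (y axis) of Myc, Max and the leading member of each role class in WT mice, by group (x axis, App for AppSAA), with a point for each mouse and bars for the mean ± SD of 4 mice. The ATV:4D9 mice lie above all ATV:ISO mice of their genotype in both genotypes, except for Max, where this holds in AppSAA mice alone, and Polr1b, where it holds in WT mice alone.

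These shifts came on top of a rise in total RNA counts per cell. UMIs per cell were 7820, 8310, 8844 and 9475 in WT mice given ATV:ISO and 15838, 14932, 17565 and 18783 with ATV:4D9, a ratio of 1.95. In AppSAA mice they were 10392, 11306, 12154 and 12226 with ATV:ISO, 10021, 11406, 12308 and 13970 with 4D9, and 17993, 15300, 17122 and 18049 with ATV:4D9. The ratio of ATV:4D9 to ATV:ISO was 1.49 there. A two-sided exact permutation test gave p = 0.0286 for each of these ATV:4D9 comparisons, the smallest that 4 against 4 mice allow, and 0.0429 after adjustment over 6 comparisons. A change in the mix of cells and a change in RNA per cell cannot be told apart in sums per mouse. By cluster of the authors (described below), UMIs per cell of WT mice with ATV:ISO and ATV:4D9 were 7528 and 7880 in cluster 0. They were 9773 and 10084 in cluster 3, and 13586 and 16246 in cluster 2. The part of the cluster shares in the rise was not tested.

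Counted per cell instead of as a share of UMIs, members rose 1.74-fold to 6.03-fold in WT mice, with a median of 3.30-fold. Of the 38, 36 rose by more than the 1.95-fold of all UMIs, the exceptions being Max (1.74) and Ddx10 (1.93). Myc rose 2.59-fold. In AppSAA mice the range was 1.53-fold to 3.39-fold, with a median of 2.30-fold, and all 38 exceeded the 1.49-fold of all UMIs. A rise per cell above that of all UMIs is a higher share of UMIs in other terms. These counts thus restate the CPM ratios and are no separate check, and the share of all genes above the ratio is not given. Summed over the 36 ribosome biogenesis members, a cell held 15.8 ± 0.825 UMIs (SD, n = 4) in WT mice given ATV:ISO and 61.8 ± 7.51 with ATV:4D9. The AppSAA groups held 23.9 ± 1.82 with ATV:ISO, 24.3 ± 3.09 with 4D9 and 58.0 ± 8.57 with ATV:4D9. As a share of all UMIs the same sum was 1833 ± 56.2, 3680 ± 70.5, 2077 ± 67.7, 2043 ± 26.9 and 3375 ± 288 CPM in these 5 groups. Abundant members, above all Npm1 and Ncl, weigh most in this sum here and below, so it does not stand for each member. Npm1 was higher by 0.89 (log2) in AppSAA than in WT mice given ATV:ISO, and its part in that difference of the sum was not tested.

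The difference held at like depth. Among cells of 5000 to 10000 UMIs the summed members were 1790 ± 54.4 CPM in WT mice given ATV:ISO and 3093 ± 194 CPM with ATV:4D9, and 1941 ± 53.0 against 2689 ± 259 CPM in AppSAA mice. Among cells of 15000 to 25000 UMIs they were 1896 ± 73.1 against 3762 ± 36.7 CPM, and 2159 ± 73.7 against 3413 ± 245 CPM. In each of 5 depth ranges every ATV:4D9 mouse lay above every ATV:ISO mouse of its genotype, while the means with 4D9 ran from 1908 to 2247 CPM. Within a group the level was higher in the deepest cells than in the shallowest, though the rise was not steady. In 4 of 5 groups the mean was lower at 5000 to 10000 UMIs than below 5000 UMIs, as in AppSAA mice given ATV:4D9 (2689 against 2872 CPM). It went from 3043 CPM below 5000 UMIs to 3986 CPM above 25000 UMIs in WT mice given ATV:4D9, and from 1854 to 2018 CPM (3 mice) in those given ATV:ISO. The cell cycle list moved with the members in all ranges, for example from 187 to 1345 CPM with ATV:4D9 in WT cells of 5000 to 10000 UMIs, and its part in the result was not tested. Over all cells that list of 16 genes went from 227 to 2030 CPM in WT and from 275 to 1498 CPM in AppSAA mice.

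**Figure D3:**
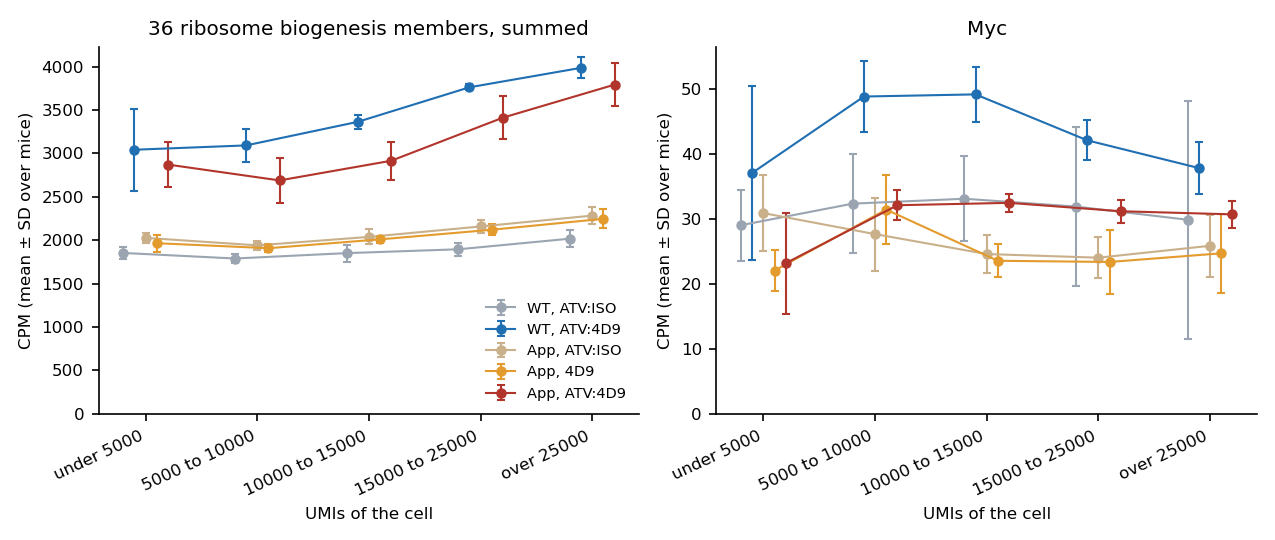
CPM (y axis, mean ± SD over the mice of a group, App for AppSAA) of the 36 summed ribosome biogenesis members on the left and of Myc on the right, in 5 ranges of UMIs of the cell (x axis). For the sum the ATV:4D9 groups lie above the other 3 groups in every range, at means of 2689 to 3986 CPM against 1790 to 2284 CPM, and for Myc WT mice given ATV:4D9 stand highest, at means of 37.0 to 49.1 CPM against at most 33.1 CPM in the other 4 groups.

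The mean of Myc at like depth was higher with ATV:4D9 than with ATV:ISO in all 5 ranges in WT mice, with no test run. The gap exceeded the SDs at 5000 to 10000 UMIs (48.8 ± 5.48 against 32.3 ± 7.66 CPM) and 10000 to 15000 UMIs. It did not below 5000 UMIs (37.0 ± 13.3 against 29.0 ± 5.48 CPM), at 15000 to 25000 UMIs (42.0 ± 3.07 against 31.9 ± 12.2 CPM) or above 25000 UMIs (37.8 ± 3.97 against 29.8 ± 18.3 CPM, 3 mice). In AppSAA mice its mean was higher in the 4 ranges from 5000 UMIs up, as at 15000 to 25000 UMIs (31.1 ± 1.77 against 24.0 ± 3.16 CPM), but lower below 5000 UMIs (23.1 ± 7.77 against 30.9 ± 5.83 CPM).

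Myc was sparse in single cells. A Myc UMI was found in 21.1, 14.6, 17.1 and 23.6% of cells in WT mice given ATV:ISO and in 34.8, 37.3, 38.1 and 37.99% with ATV:4D9. With every cell thinned to 5000 UMIs, these became means of 12.8% and 16.9%. In AppSAA mice the means were 19.3% with ATV:ISO, 20.4% with 4D9 and 28.2% with ATV:4D9 before thinning, and 10.7%, 11.1% and 12.3% after it. The thinned ranges of ATV:ISO (8.20 to 12.2%) and ATV:4D9 (11.7 to 12.9%) overlapped in AppSAA mice but not in WT mice (9.67 to 15.4% and 15.6 to 18.0%). Thinning left out 4309 cells below 5000 UMIs (5.76%), 197 to 345 per mouse in WT mice given ATV:ISO and 68 to 139 with ATV:4D9, and 224 to 400, 115 to 310 and 78 to 232 in the AppSAA groups given ATV:ISO, 4D9 and ATV:4D9. Other cell types were at trace levels, so no cell type without Myc was at hand to give a background share.

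Thinned cells with a Myc UMI held slightly more UMIs of the 36 ribosome biogenesis members than those without one. In WT mice the means were 9.39 against 9.01 of 5000 UMIs with ATV:ISO and 18.3 against 17.6 with ATV:4D9. In AppSAA mice given ATV:ISO they were 10.5 against 10.1, and with ATV:4D9 17.7 against 15.7. The difference had the same direction in 4 of 4 mice of every group. Within deposited clusters it held in all mice in 11 of 16 sets of a cluster and a group, cluster 1 of the 3 AppSAA groups among them (11.2 against 10.4 with ATV:ISO). In cluster 2 the means were 18.97 against 18.1 in WT mice and 19.9 against 18.5 in AppSAA mice given ATV:4D9, in the same direction in 4 of 4 mice of both groups. In cluster 0 they were 9.04 against 8.88 in WT mice and 9.44 against 9.37 in AppSAA mice given ATV:ISO, with 2 of 4 mice higher in each, and 9.27 against 9.28 with 4D9, with 3 of 4 mice higher. In cluster 3 of AppSAA mice given ATV:ISO and in cluster 4 of those given ATV:4D9, 3 of 4 mice were higher. Over all cells, those without a Myc UMI in the ATV:4D9 groups lay above those with one in the ATV:ISO groups. In cluster 1 of AppSAA mice the order was the opposite, at 9.39 against 11.2.

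The authors' clustering at resolution 0.2 had 6 numbered clusters without names, and the shares of cells in them differed with treatment. In WT mice given ATV:ISO, deposited clusters 0 and 3 held 60.4% and 35.8% of the cells, and with ATV:4D9 3.11% and 4.56%. Cluster 2 went from 1.35% to 47.8%, cluster 4 from 0.351% to 39.95% and cluster 5 from 0.737% to 4.21%. In AppSAA mice clusters 2, 4 and 5 went from 2.34%, 0.949% and 2.48% to 35.4%, 22.4% and 22.4%, and cluster 1 from 38.3% to 13.5%. Clusters were drawn from expression, so the levels that follow compare them as a description, with no test.

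The member level differed between clusters, and within some clusters also between groups. Over sums of at least 20 cells of a mouse, the 36 ribosome biogenesis members had median levels of 1870, 2066, 3452, 1905, 3134 and 2348 CPM in deposited clusters 0 to 5. These medians pool the groups, and clusters 1, 4 and 5 lack sums from some WT mice. Npm1 and Ncl, the most abundant members, had pooled medians of 725 and 312 CPM in cluster 1, against 373 and 267 CPM in cluster 0. Cluster 2 had the highest such median for 32 of the 38 members, Myc included. Within mice given ATV:4D9 the summed level of cluster 4 lay close to that of cluster 2, with mean log2 ratios of 0.01 in WT and -0.01 in AppSAA mice, while in AppSAA mice it was lower with ATV:ISO (-0.53) and 4D9 (-0.42). Cluster 4, with a cell cycle list at a median of 3482 CPM against 187 to 894 CPM elsewhere, had the highest pooled median for Nhp2, Nop10, Nop58 and Npm1. Taken by group, the means of Nhp2 and Nop58 were higher in cluster 2 than in cluster 4 in each of the 4 groups with both, for example 81.3 against 58.2 CPM for Nop58 in AppSAA mice given ATV:ISO. By pooled median Max was highest in cluster 5 (75.3 CPM, 39.7 to 48.5 CPM elsewhere). Rrp1b was highest in cluster 0 (35.8 CPM), nearly tied with cluster 4 (35.3 CPM, mice from 17.1 to 48.8 CPM). Cluster 1 was lowest for 31 of the 38 members, although its median UMIs per cell, 14788, was close to the 15260 of cluster 2 and above the 7673 of cluster 0. For Npm1 the order differed. Its pooled median was 725 CPM in cluster 1 (mice from 563 to 784 CPM), near the 732 CPM of cluster 2 (587 to 1036 CPM). In clusters 0 and 3 it was 373 and 396 CPM. Npm1 rose with ATV:4D9 within cluster 2 (below), so its pooled median does not stand for each group.

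Myc had a pattern of its own. Its medians were 43.5 CPM in cluster 2, 38.4 CPM in cluster 3, 31.7 CPM in cluster 4, 26.9 CPM in cluster 5, 23.4 CPM in cluster 0 and 19.03 CPM in cluster 1. In WT mice given ATV:ISO the mean of cluster 3 (42.5 CPM) was above that of cluster 2 (37.0 CPM), with overlapping mice. Cluster 3 was near the bottom for the sum of the 36 ribosome biogenesis members. It was the highest in the immediate early list (23540 CPM, against 3456 to 9636 CPM elsewhere). The lowest and highest mice of neighbouring clusters overlapped throughout this order.

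**Figure D4:**
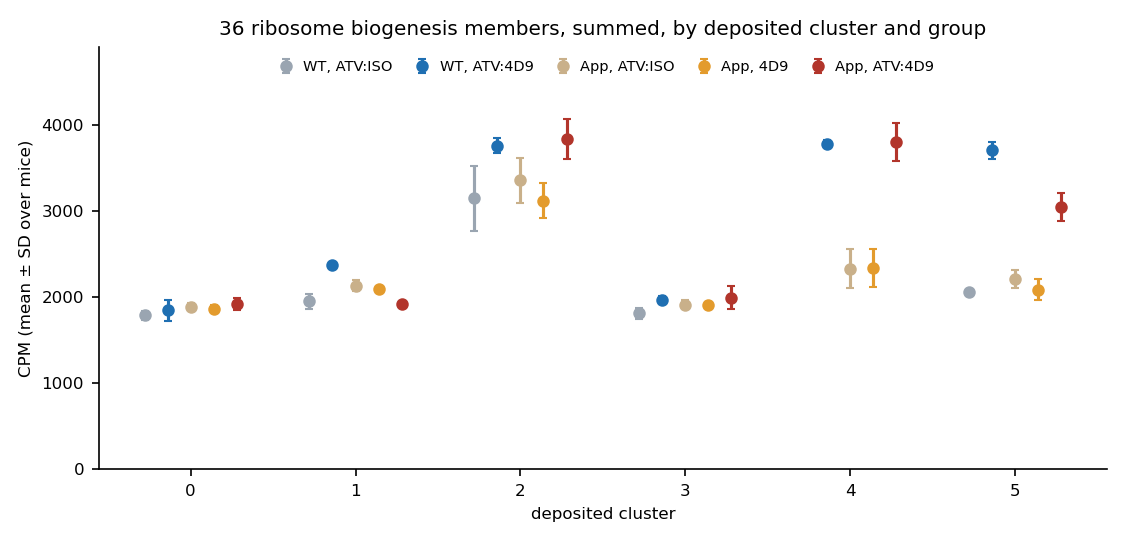
CPM of the 36 summed ribosome biogenesis members (y axis, mean ± SD over mice) in each deposited cluster (x axis) and group (colours, App for AppSAA), with no error bar where only 1 mouse had at least 20 cells. All groups are high in cluster 2, from 3113 to 3829 CPM, while in clusters 4 and 5 the ATV:4D9 groups, at 3041 to 3793 CPM, stand above the other groups, at 2061 to 2337 CPM.

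Without ATV:4D9 the cells in cluster 2 also had a higher level than those in cluster 0, but cells were placed in clusters by their expression. Whether cells assigned to the wrong mouse were among them was not tested. In WT mice given ATV:ISO, sums of 23 to 42 cluster 2 cells per mouse held 3142 ± 373 CPM of the summed members, against 1783 ± 51.1 CPM in cluster 0 of the same mice. With ATV:4D9 the values were 3756 ± 84.7 and 1845 ± 123 CPM. In AppSAA mice cluster 2 held 3351 ± 262 CPM with ATV:ISO, 3113 ± 203 CPM with 4D9 and 3829 ± 231 CPM with ATV:4D9. Cluster 0 held 1887 ± 42.4, 1863 ± 42.2 and 1922 ± 69.7 CPM in the same 3 groups.

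Tested between mice within a cluster, the median member changes in clusters 0, 2 and 3 were smaller than those over all cells. Cells were placed in clusters by expression, so such a test cannot show how much of the group difference is left. The shares of all genes in this paragraph come from the edgeR fit without the pool. Counts by DESeq2 or with the block cannot be set against them. In cluster 0 no member was called with ATV:4D9 in either genotype, with 6 and 3 members at an unadjusted p under 0.05, 0 and 1 called by DESeq2 in WT and AppSAA mice, and 3 and 2 with the pool as a block. Over all genes 1.02% and 0.53% were called higher there. The median member changes were 0.03 and -0.05. The ATV:4D9 sums of cluster 0 held 60 to 186 cells per mouse in WT and 37 to 195 in AppSAA mice. In cluster 3 Pes1 (0.59), Npm1 (0.42) and Ncl (0.29) rose in WT mice (4.15% of all genes called higher) and Npm1 (0.47) in AppSAA mice (3.37%), and the block gave 6 and 4. Positive changes there numbered 29 in WT and 22 in AppSAA mice, with medians of 0.14 and 0.05. In cluster 2 Npm1 (0.50) and Nop58 (0.47) rose in WT mice (3.19% of all genes called higher). In AppSAA mice (6.89%) Pno1 (0.54), Npm1 (0.40), Nip7 (0.40), Nop58 (0.38) and Mybbp1a (0.36) rose there, 10 members with the block. Without 1 mouse the count fell to 0 (ATV:ISO, pool 3), 1 (ATV:4D9, pool 1), 2 (ATV:4D9, pool 3, or ATV:ISO, pool 4) or 3 (ATV:ISO, pool 1), and in WT mice to 1 without the ATV:4D9 mouse of pool 4 or the ATV:ISO mouse of pool 2, 3 or 4. In cluster 2, 32 members had a positive change in WT and 31 in AppSAA mice, with medians of 0.18 and 0.14. Of these tests 8 and 11 had an unadjusted p under 0.05. The cell cycle list in cluster 2 went from 619 to 1231 CPM in WT and from 864 to 1140 CPM in AppSAA mice. Its part was not tested.

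Clusters 4 and 5 differed from these. In cluster 4 of AppSAA mice 27 of 38 members rose with ATV:4D9, beside 13% of all genes called higher, with a median of 0.69. The largest changes were those of Rrp12 (1.47), Rrs1 (1.30), Mybbp1a (1.10), Nolc1 (1.04), Rrp1b (0.99) and Ddx21 (0.95). Rrp12 was scarce in cluster 4, from 1.48 to 12.2 CPM over the mice of all groups, so its place in this order is uncertain. The summed members went from 2327 ± 226 CPM in sums of 27 to 74 cells to 3793 ± 220 CPM, while the cell cycle list was 3939 ± 399 CPM and 3297 ± 107 CPM. The cells compared were not of the same subclusters. In the authors' clustering at resolution 0.4, cluster 4, with the cell cycle list at 2480 to 2680 CPM, had sums of at least 20 cells from the 8 ATV:4D9 mice alone. Cluster 7 of that clustering, with the cell cycle list at 3778 to 4858 CPM, had sums from all AppSAA groups. There the sum of 36 ribosome biogenesis members was 2215 ± 222 CPM with ATV:ISO, 2179 ± 246 CPM with 4D9 and 3354 ± 205 CPM with ATV:4D9, and the cell cycle list 4122 ± 496, 4004 ± 126 and 4272 ± 159 CPM. In cluster 5, 27 members rose as well, beside 15.7% of all genes called higher and 14% lower, with a median of 0.53, led by Nop58 (1.12), Nhp2 (1.04) and Mrto4 (0.91). The summed members went from 2206 ± 109 to 3041 ± 167 CPM. There the cell cycle list rose with them, from 229 ± 49.6 to 743 ± 49.3 CPM, as did UMIs per cell, from 11941 to 16601, and their part in the result was not tested. The counts fell to 16 in cluster 4 without the ATV:ISO mouse of pool 4 and to 15 in cluster 5 without that of pool 3. In WT mice too few ATV:ISO mice had 20 cells in these clusters for a test.

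Cluster 1 went the other way. In AppSAA mice Tsr1 (-0.52, edgeR adjusted p 0.0456) and Ppan (-0.50, edgeR adjusted p 0.0171) fell with ATV:4D9 and 0 members rose, beside 0.451% of all genes called lower and 1.06% higher. Of the 38 members, 34 had a negative change, 18 had an unadjusted p under 0.05 in either direction, and 17 were called lower with the pool as a block. DESeq2 called 6 lower. The shares of all genes called with the block and by DESeq2 are not given here, so the 17 and the 6 cannot be set against 0.451%. Without the ATV:4D9 mouse of pool 2, 3 or 4, 0 were called lower, and 1 without any of the ATV:ISO mice. The summed members were 2130 ± 64.9 CPM with ATV:ISO, 2089 ± 29.9 CPM with 4D9 and 1919 ± 20.9 CPM with ATV:4D9, a range of 1900 to 1949 CPM in the last group below the 2085 to 2226 CPM of the first. Myc was not called within any cluster. Its change with ATV:4D9 in cluster 1 of AppSAA mice was -0.54 (edgeR adjusted p 0.0546), from a mean of 22.2 to 14.8 CPM.

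**Figure D5:**
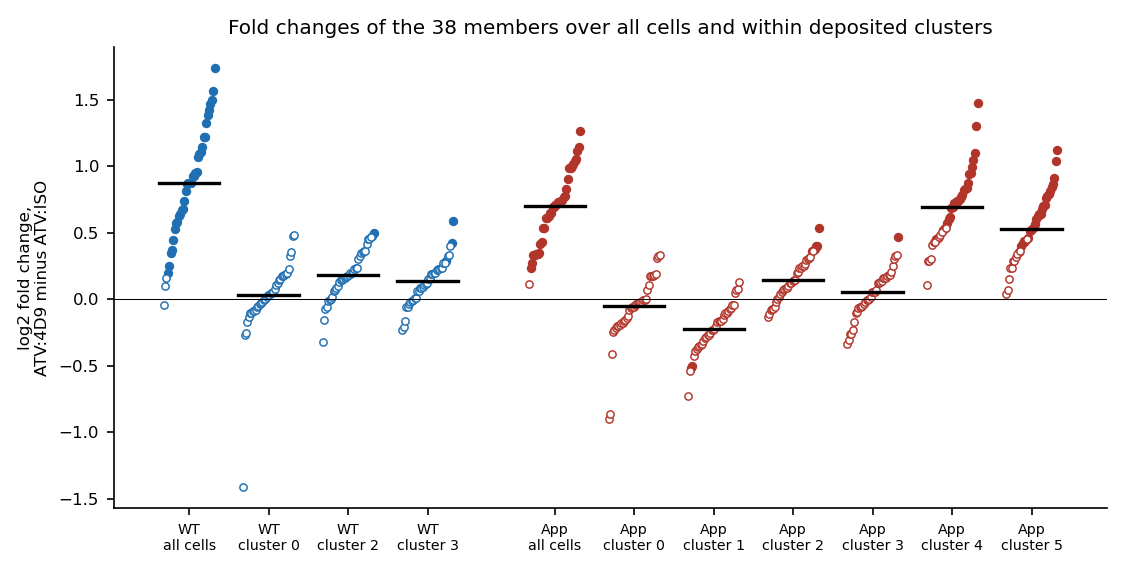
Log2 fold change of each of the 38 members (points) with ATV:4D9 over all cells and within each deposited cluster (x axis) in WT and AppSAA (App) mice, filled where called, with the median as a black bar. In AppSAA mice the median is 0.70 over all cells, -0.23 in cluster 1, -0.05 in cluster 0, and 0.69 and 0.53 in clusters 4 and 5.

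Fewer members differed between the genotypes given ATV:ISO. No age was given for this experiment, and 1 WT mouse given ATV:ISO was recorded as female. Effects of age or sex cannot be told apart from those of genotype here or in the comparison with ATV:4D9. With ATV:ISO, AppSAA mice were higher than WT mice in 8 of 38 members and lower in 1 (unadjusted p under 0.05 in 12), beside 14.4% and 13.7% of all genes called higher and lower. Npm1 was 0.89 ± 0.10 higher (edgeR adjusted p 8.72e-07), Nhp2 0.60 ± 0.14 (0.00237), Nop10 0.60 ± 0.16 (0.00639), Rrp12 0.47 ± 0.13 (0.0101) and Ncl 0.39 ± 0.09 (0.00196). Gnl3 (0.31), Pes1 (0.25) and Mybbp1a (0.24) differed less, and Rrp1b was lower (-0.29 ± 0.09, edgeR adjusted p 0.0270). With the pool as a block 13 were higher and 2 lower, and in cells of 5000 to 15000 UMIs 3 were higher and 0 lower. The shares of all genes called in those fits are not given here, so these counts cannot be set against them. TMM scaling placed this comparison 0.19 above the CPM ratio, and the sign of 16 members, none of them among the 9 called, depended on it. The Rrp1b call was lost without the ATV:ISO mouse of pool 2, 3 or 4 of the AppSAA mice (edgeR adjusted p 0.0983, 0.0743 and 0.0636) or of pool 2 or 4 of the WT mice (0.0736 and 0.0651). The Mybbp1a call was lost without the AppSAA mouse of pool 2 (0.0688) or the WT mouse of pool 3 (0.0622). In cells with 5000 to 15000 UMIs Nhp2 (0.36, edgeR adjusted p 0.0922), Nop10 (0.36, 0.186) and Rrp12 (0.40, 0.0801) were lost. Pes1 (0.20, 0.0665), Mybbp1a (0.21, 0.104) and Rrp1b (-0.21, 0.197) were lost there as well. In thinned cells Rrp12 (0.37, edgeR adjusted p 0.189) and Rrp1b (-0.27, 0.0558) were lost. UMIs per cell were 1.34 times as high in the AppSAA mice.

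With ATV:4D9 the genotypes lay close together. Max was higher in AppSAA mice (0.38 ± 0.10, edgeR adjusted p 0.0147) and Rrp1b lower (-0.30 ± 0.09, edgeR adjusted p 0.0372), 1 member in each direction beside 7.84% and 3.98% of all genes. The median member difference was 0.01, with TMM scaling 0.14 above the CPM ratio, on which 1 of the 38 members was higher in AppSAA mice (Max). With the block Myc (-0.33), Tsr1 (-0.22), Nop56 (-0.19) and Nop2 (-0.17) were lower as well, 5 in all, with no share of all genes given for that fit. The Max call was lost without the AppSAA mouse of pool 1 (edgeR adjusted p 0.0543) or the WT mouse of pool 3 (0.0562), and that of Rrp1b without the AppSAA mouse of pool 2 or 3 or any 1 of the 4 WT mice (0.0526 to 0.143). Within cluster 5 Tsr1 (-0.53), Nop58 (-0.51) and Nop56 (-0.47) were lower in AppSAA mice and 0 were higher, beside 3% and 3.87% of all genes called lower and higher. The block called 11 lower there, and 7 were called lower without the AppSAA mouse of pool 1. For these fits too the share of all genes is not given. The cell cycle list in those cluster 5 cells was 1296 CPM in WT and 743 CPM in AppSAA mice, and its part in the difference was not tested.

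In the fit without the pool, the effect of ATV:4D9 itself was called different between the genotypes for few members, a share near that of all genes in that fit. The effect in AppSAA minus that in WT mice was -0.77 ± 0.14 for Npm1 (edgeR adjusted p for the interaction 0.00112) and -0.40 ± 0.12 for Tsr1 (0.0468), 2 members lower and 0 higher beside 5.35% and 3.79% of all genes. A further 8 members had an unadjusted p under 0.05 without passing the adjustment. Of the 38 differences 8 were positive, with a median of -0.16 against 0.04 for all genes. With the pool as a block 10 members were called lower, Nop58, Ncl, Nop10, Nop56, Gar1, Nhp2, Gnl3 and Rrp12 in addition, and Max and Ddx10 were called higher. The share of all genes called with the block is not given here, so these counts cannot be set against it. Without the AppSAA mouse of pool 1 given ATV:4D9 9 were called lower, and without the WT mouse of pool 1 given ATV:ISO 5. Npm1 was called in every fit. The Tsr1 call was lost, with edgeR adjusted p between 0.0642 and 0.104, without the AppSAA mouse of pool 2 given ATV:4D9 or of pool 1, 2 or 4 given ATV:ISO, without the WT mouse of pool 2, 3 or 4 given either antibody, and in cells thinned to 5000 UMIs, where the difference was as large (-0.45, edgeR adjusted p 0.0529).

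Listed genes of the same pathway outside the 38 moved the same way but less uniformly. The list was chosen with earlier results of these data known, so it is no independent check. Of 104 other ribosome biogenesis genes, 64 rose and 10 fell with ATV:4D9 in WT mice, with a median of 0.42, where 30.8% of all genes were called higher and 32.5% lower. In AppSAA mice 67 rose and 7 fell, with a median of 0.35, beside 27.9% and 27.1% of all genes. The highest in WT mice were Ftsj3 (1.32), Utp20 (1.07) and Snu13 (1.04), and the lowest Twistnb (-0.41), Sbds (-0.59) and Taf1c (-0.62). Sbds releases a factor from the new 60S subunit, and Twistnb and Taf1c belong to RNA polymerase I and its initiation factor.

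Most genes of a list of Myc targets in other pathways rose as well. This list and that of Myc partners were chosen with earlier results of these data known, so they are no independent check. Of 26 tested, 25 rose and 1 fell in WT mice, beside 30.8% of all genes called higher and 32.5% lower, with a median of 1.35, led by Ctps (2.39) and Nme1 (2.18) of nucleotide synthesis and Shmt2 (2.06) of one-carbon metabolism, while Slc3a2 rose by 0.35 and Bcat1 fell (-1.59). In AppSAA mice 25 rose and 0 fell, beside 27.9% and 27.1% of all genes, with a median of 1.09. The 10 tested partners and relatives of Myc went mostly down. Against the same shares of all genes, 8 fell and 1 rose in WT mice, and 7 fell and 1 rose in AppSAA mice. Mycl fell by 3.02 on the log2 scale, and so did the Max-binding repressors Mxd4 (-1.81) and Mnt (-0.78), while Mxd3, a relative known from cells in S phase, rose by 3.30. With 4D9, 0 genes of these 3 lists were called, and 2, 0 and 0 had an unadjusted p under 0.05.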

How the data were processed

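Per the labels, single cells were sorted by CD11b and sequenced from the 3′ end with sample tags. Per the labels, the authors made the deposited UMI counts with Cell Ranger 6.1.1 on mm10, and clustered the cells in Seurat. The deposited annotation gave each cell's mouse, pool, cluster and, computed by the authors, total UMI count and percent of mitochondrial UMIs. How doublets were removed is not given in the sources used here, and every deposited cell was kept. Counts were added up over the cells of a mouse, and of a mouse in a cluster from 20 cells in at least 3 mice of a group. edgeR 4.0.16 (TMM, quasi-likelihood, all 20 mice, R 4.3.3) was the main test, and limma 3.58.1 and DESeq2 1.42.0 were alternatives. They were tested on simulated data. Each pool held 1 mouse of every group, and same-pool deviations correlated (r 0.143 to 0.607 in 40 pairs), so the pool was also fitted as a block. Per-mouse values are given for Myc, Max and the largest change of each role class in WT mice. Members and lists were chosen with earlier results of these data known. RefSeq windows are GRCm38.p6.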

Additional observations from a re-analysis of the deposited data

Results flagged for a closer look

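Of 70 groups of 4 mice examined, 5 held a mouse far from the other 3 by Dixon's criterion, and chance flags about 1 in 20 groups. Npm1 stood at 841 CPM in the WT mouse of pool 2 given ATV:4D9, below 919 to 926 CPM in the others. Polr1b was 5.42 CPM in the WT mouse of pool 1 given ATV:ISO, against 6.22 to 6.30 CPM. Rrp12 was 6.07 CPM in the AppSAA mouse of pool 2 given ATV:4D9, against 8.0 to 8.37 CPM. Mybbp1a was 44.3 CPM in the AppSAA mouse of pool 1 given ATV:ISO, against 49.3 to 49.6 CPM. The same mouse held 21.2 UMIs per cell of the 36 ribosome biogenesis members, against 24.6 to 25.1.

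In the fit without the pool, the effect of ATV:4D9 differed between the genotypes by the interaction test for 2 members, Npm1 (-0.77 on the log2 scale, AppSAA minus WT) and Tsr1 (-0.40). That count is near the 5.35% of all genes called lower in the same fit. With the pool as a block 10 members were called lower and 2 higher, with no share of all genes given for that fit. The Tsr1 call was lost without any of 10 single mice and in thinned cells.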

How the results depend on the processing

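The number of members higher with ATV:4D9 stayed within 34 to 37 in WT mice, 33 to 37 in AppSAA mice and 30 to 37 against 4D9 over every alternative run. No call reversed, while the change of Max in WT mice, which was not called (-0.04), ran from -0.12 to 0.17. Counts below are of members called higher or lower. Shares of all genes are not given for these alternative runs, so the counts cannot be set against them. With the pool as a replicate block, 13 were higher and 2 lower by genotype with ATV:ISO, 5 lower by genotype with ATV:4D9, and 10 lower and 2 higher in the interaction. Within clusters the block gave 3 and 2 higher in cluster 0 (WT, AppSAA), 17 lower in cluster 1, 10 higher in cluster 2 of AppSAA mice, 6 and 4 higher in cluster 3, and 11 lower by genotype in cluster 5. It moved no other count of members by over 1.5 times.

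In cells with 5000 to 15000 UMIs, 3 were higher and 0 lower by genotype with ATV:ISO, 5 lower with ATV:4D9 and 4 lower in the interaction. In cells thinned to 5000 UMIs these were 0, 2 and 1 lower. Without a filter on low counts they were 0, 0 and 4 lower, and without cluster 4, 0 were lower with ATV:ISO and 6 in the interaction. RLE size factors gave 6 lower in the interaction, limma-voom 4 and DESeq2 6. DESeq2 also gave 2 lower by genotype with ATV:4D9, 1 higher in cluster 0 and 6 lower in cluster 1 of AppSAA mice. limma-voom gave 1 lower in cluster 1 and 1 higher in cluster 2 of WT mice, and at least 50 cells per sum gave 5 lower in cluster 1. The causes were not tested.

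Leaving out 1 mouse gave 0 to 1 lower by genotype with ATV:ISO, 0 to 1 higher and 0 to 2 lower with ATV:4D9, and 0 to 1 higher and 1 to 9 lower in the interaction. In AppSAA clusters it gave 0 to 3 lower in cluster 1, 0 to 6 higher in cluster 2, 16 to 28 in cluster 4 and 15 to 29 in cluster 5. It gave 1 to 2 higher in cluster 2 of WT mice and 2 to 7 lower by genotype in cluster 5.

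Of the other ribosome biogenesis genes, 6 fell in WT mice without a filter and 3 without cluster 4. In AppSAA mice 4 fell without cluster 4 and 4 in cells with 5000 to 15000 UMIs. Ribosomal protein genes higher with ATV:4D9 in AppSAA mice numbered 22 with the block, 31 in cells with 5000 to 15000 UMIs, 30 in thinned cells and 9 to 20 without 1 mouse. Ratios of UMIs per cell taken from medians were 1.66 for ATV:4D9 in AppSAA mice and 1.23 for genotype with ATV:ISO. Ratios of the share of cells with a Myc UMI after thinning were 1.32 and 1.15 for ATV:4D9 in WT and AppSAA mice, 1.11 against 4D9 and 0.835 for genotype with ATV:ISO. Sums without ATV:4D9 held 23 to 172 cells in cluster 2 and 26 to 74 in cluster 4, which limits the precision for scarce members.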

Other observations

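Transcripts of the cytosolic ribosomal proteins rose with ATV:4D9 in WT mice like those of the assembly genes, but differed from them in AppSAA mice and by genotype. Of 82 ribosomal protein genes, a list chosen after the data were seen, 81 were tested. With ATV:4D9, 69 rose and 1 fell in WT mice, with a median log2 fold change of 0.55, beside 30.8% of all genes called higher and 32.5% lower. In AppSAA mice 14 rose and 7 fell, with a median of 0.05, beside 27.9% and 27.1% of all genes. The 14 became 22 with the pool as a block, 31 in cells with 5000 to 15000 UMIs, 30 in thinned cells and 9 without the ATV:4D9 mouse of pool 1. The shares of all genes in those fits are not given here. This list differed more between the genotypes than the assembly genes. With ATV:ISO 80 of 81 were higher and 0 lower in AppSAA than WT mice (median 0.80), beside 14.4% and 13.7% of all genes. With ATV:4D9 30 were higher and 0 lower (median 0.30), beside 7.84% and 3.98%. The effect of ATV:4D9 was lower in AppSAA mice for 44 of the 81 by the interaction test, beside 5.35% of all genes, with a median difference of -0.50. With 4D9, 0 were called and 0 had an unadjusted p under 0.05. Many ribosomal protein genes have processed pseudogenes, so their counts are less certain.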
